A study of Mus musculus with 9 samples.

Results

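The genes examined here are 10 antioxidant and detoxification genes known as targets of the transcription factor NRF2. They were chosen by name (Nqo1, Akr7a3, Gclc, Gclm, Slc7a11, Gsr, Gpx2, Txnrd1, Srxn1 and Hmox1), and 9 of the 10 were matched by symbol among the 19686 genes counted. Srxn1 (sulfiredoxin) was not analysed here. Of the 9 matched genes, 7 had enough counts to be tested in all 3 comparisons, and the other two, Slc7a11 and Gpx2, had at most 10 counts in any library. Livers came from male Wistar rats, 3 in each of the control, model and DSS groups. Control rats drank purified water, and rats of the model and DSS groups drank 15% fructose. Control and model rats were gavaged with saline, and DSS rats with an extract of the herbal formula Danggui-Shaoyao-San (DSS) at 1.8 g/kg, for 8 weeks in every group. The labels give only the name DSS, and per the study's methods this was the extract made with methanol in water (HME). All rats were fasted for 12 h before the liver was taken, their age is not given in the sources used here, and no group received the extract without fructose. The organism field of the labels says mouse, but Wistar is a rat strain and the gene identifiers carry the rat prefix.

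NRF2, the product of Nfe2l2, is held at a low level by KEAP1, which brings it to a CUL3 ubiquitin ligase. When electrophiles or oxidants modify KEAP1, NRF2 accumulates, pairs with a small MAF protein and binds antioxidant response elements near its target genes, where the repressor BACH1 can compete. In the liver its targets make glutathione, recycle oxidized glutathione and thioredoxin, reduce quinones and aldehydes, and break down heme. Oxidative stress is one of the processes that the study links to high fructose intake, and the comparisons below ask how these genes stood with fructose alone and with fructose plus the extract.

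Levels are CPM, a gene's share of the counts of a library, scaled to the TMM-normalized library sizes, and fold changes are log2 values from edgeR with their standard error (SE). Calls needed a log2 fold change of 0.5 or more in size and an FDR (Benjamini-Hochberg, over all genes tested) no higher than 0.01, and calls at an FDR of 0.05 are also given. Libraries held 14345819 to 26837227 counts. The 6 hepatocyte markers (Alb, Apoa1, Ttr, Serpina1, Cps1 and Tat) summed to 110677 to 137490 CPM in control rats. They summed to 131641 to 178376 CPM in model rats and 135120 to 169445 CPM in DSS rats, mostly from Alb. Cps1 and Tat of that list were lower in every model rat than in any control rat. Their log2 fold changes were -0.76 (SE 0.184, FDR 0.123 from edgeR and 0.00454 from DESeq2) and -0.79 (SE 0.304, FDR 0.318 and 0.142). Cps1 stood at 4075 ± 354, 2419 ± 494 and 3865 ± 636 CPM in control, model and DSS rats (SD, n = 3 each). Tat stood at 795 ± 89.4, 460 ± 196 and 583 ± 162 CPM in the same order. The 9 markers of Kupffer cells and leukocytes summed to 295 to 676 CPM in control rats, 228 to 489 CPM in model rats and 302 to 416 CPM in DSS rats. The 6 markers of perivenous hepatocytes summed to 2380 to 2727 CPM, 1766 to 2039 CPM and 2605 to 3637 CPM in the same order, a sum made up mostly of Cyp2e1. Its list went in different directions. Glul stood at 366 ± 81.9 CPM in control rats, 570.04 ± 107 CPM in model rats and 395 ± 31.7 CPM in DSS rats (SD, n = 3 each). Oat stood at 304 ± 125, 111 ± 39.4 and 147 ± 33.5 CPM in the same order, lower in every model and DSS rat than in any control rat. Lgr5, Slc1a2 and Axin2 overlapped between groups. In whole liver, fewer cells of a type and less RNA per cell cannot be told apart. Model replicate 1 was the deepest library and stood apart on the second principal component, at 59.2, with the next library at 16.7.

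None of the 7 tested members passed both thresholds in any of the 3 comparisons with edgeR. Against the control group, the model group had 1 member higher (Akr7a3) and 1 lower (Nqo1) at an unadjusted p under 0.05, a level that 13.2% of the 12486 genes tested reached. Between the DSS and model groups no member reached it, against 8.02% of 12502 genes. Between the DSS and control groups 1 was higher (Akr7a3) and 2 were lower (Nqo1 and Gclc), against 24.3% of 12633 genes. Both thresholds were passed by 0.0801%, 0.136% and 1.48% of all genes in the same order. At an FDR of 0.05, edgeR called 1 member, Nqo1, in the DSS group against control, and with edgeR 0.601%, 0.456% and 6.36% of all genes were called at it in the 3 comparisons. The rats of the groups did not overlap for 2 of the 7 members in the model group against control (Nqo1 and Akr7a3), for 1 in the DSS group against model (Gsr) and for 1 in the DSS group against control (Nqo1), against 21.1%, 13.9% and 30% of all genes. DESeq2 on the same genes called no member at an FDR of 0.01 in the first and second comparisons and 2 members, Nqo1 and Akr7a3, in the third, and at an FDR of 0.05 it called 1 (Akr7a3), 0 and 2 (Nqo1 and Akr7a3). The median log2 fold change of the 7 members was -0.04 in the model group against control, -0.04 in the DSS group against model and -0.08 in the DSS group against control, and the medians of all genes were 0.00, 0.00 and -0.01.

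**Figure D1:**
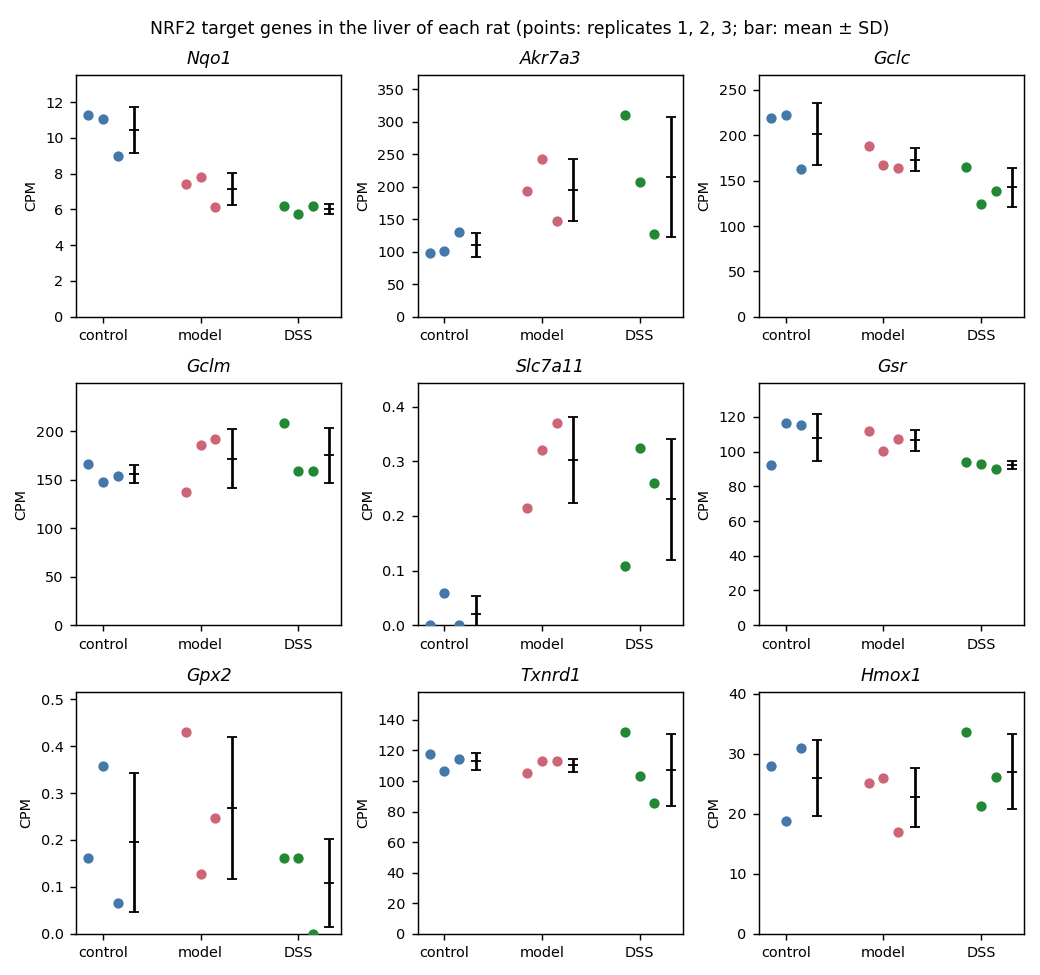
Levels of the 9 matched NRF2 target genes in each rat, in CPM on linear axes that start at 0 and differ between panels. Points are the 3 rats of each group, and bars give their mean ± SD. Nqo1 was lower in every model and DSS rat than in any control rat, Akr7a3 was higher in the model rats than in any control rat, and Slc7a11 and Gpx2 stayed under 0.5 CPM.

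The enzymes of quinone and aldehyde reduction are represented by Nqo1 (ENSRNOG00000012772) and Akr7a3 (ENSRNOG00000017899). NQO1 reduces quinones by a pair of electrons from NAD(P)H and is the most widely used readout of NRF2. Its gene stood at 11.3, 11.1 and 8.97 CPM in the control rats, at 7.44, 7.83 and 6.16 CPM in the model rats and at 6.17, 5.72 and 6.19 CPM in the DSS rats. Each model rat and each DSS rat was lower than every control rat, and the model and DSS rats overlapped. For model against control rats the log2 fold change was -0.55 (SE 0.185, 95% interval -0.97 to -0.13, FDR 0.257 from edgeR), which was not called. In the DSS group against control it was -0.80 (SE 0.154, 95% interval -1.15 to -0.45, FDR 0.0186), a call at the looser FDR threshold only. Without control replicate 1 or 2 or DSS replicate 1 that FDR rose above 0.05, to at most 0.0667, while the fold change stayed between -0.89 and -0.74 with any 1 rat left out. Between the DSS and model groups the log2 fold change of Nqo1 was -0.24 (SE 0.187, 95% interval -0.67 to 0.19). Without model replicate 1, the library that stood apart, the log2 fold change between the model and control groups was -0.60. The 3 DSS rats differed little among themselves, with a coefficient of variation of 4.45% against 12.2% in the control group and 12.3% in the model group.

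Akr7a3 encodes an aldo-keto reductase that reduces aflatoxin dialdehyde and is strongly induced by chemopreventive agents in rat liver. Its level was 98.6, 101 and 131 CPM in control rats, 193, 243 and 148 CPM in model rats and 311, 207 and 127 CPM in DSS rats. Every model rat was above every control rat, whereas DSS replicate 3 lay within the range of the control rats. For model against control rats, Akr7a3 had a log2 fold change of 0.82 (SE 0.206, 95% interval 0.35 to 1.29, FDR 0.132 from edgeR). It was 0.96 in the DSS group against control (SE 0.319, 95% interval 0.20 to 1.72, FDR 0.128), and 0.15 in the DSS group against model (SE 0.321, 95% interval -0.59 to 0.89). None of these passed with edgeR, and the model group's value was 0.81 without model replicate 1. With DESeq2 the FDR was 0.0154 in the model group and 0.00621 in the DSS group against control. The spread between rats of Akr7a3 was wide in the DSS group, with a coefficient of variation of 42.8%. Its paralogue Akr7a2, looked up after these values were seen because the copies could share reads, stood at 94.4 ± 19.0 CPM in control rats, 109 ± 14.2 CPM in model rats and 99.7 ± 10.3 CPM in DSS rats (SD, n = 3 each). The log2 fold change of Akr7a2 against control was 0.21 in the model group (SE 0.182) and 0.07 in the DSS group (SE 0.157).

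**Figure D2:**
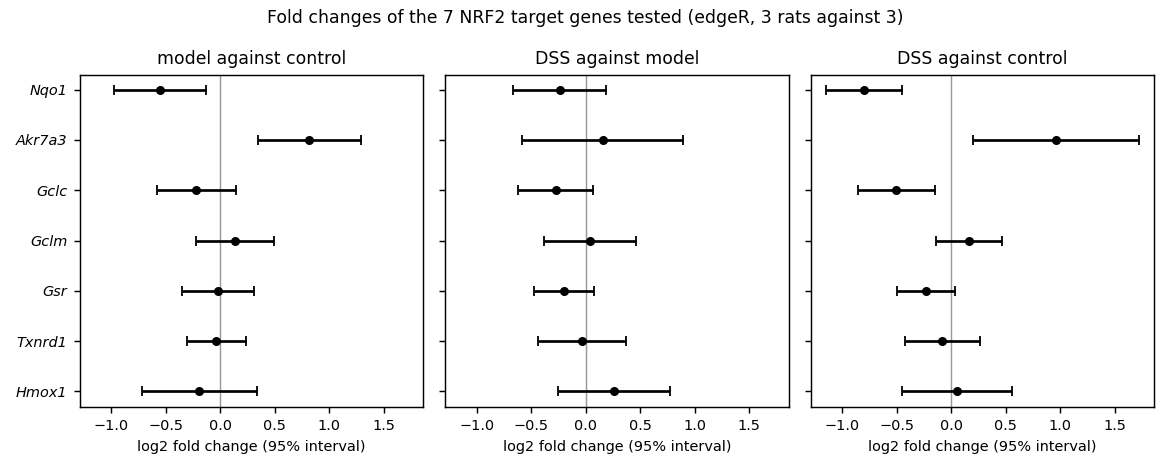
Log2 fold changes of the 7 tested members in the 3 comparisons, from edgeR on 3 rats against 3, with 95% intervals. The intervals of Nqo1 lie below 0 and those of Akr7a3 above 0 in both comparisons with the control group, the interval of Gclc lies below 0 in the DSS group against control, and all others cross 0.

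The first and rate-limiting step of glutathione synthesis is carried out by glutamate-cysteine ligase, a dimer of a catalytic subunit (Gclc, ENSRNOG00000006302) and a modifier subunit (Gclm, ENSRNOG00000013409). Gclc stood at 219, 223 and 162 CPM in control rats, at 188, 167 and 164 CPM in model rats and at 165, 124 and 138 CPM in DSS rats. The groups overlapped, through control replicate 3 at the low end of the control group. The log2 fold change of Gclc was -0.22 for model against control rats (SE 0.159, FDR 0.599), -0.28 in the DSS group against model (SE 0.151, FDR 0.737) and -0.51 in the DSS group against control (SE 0.157, 95% interval -0.86 to -0.15, FDR 0.0857), none of them called by edgeR. With no filter on low counts the edgeR FDR of the last was 0.044. DESeq2 gave it an FDR of 0.0458 with a log2 fold change of -0.498, just under the minimum in size. Gclm stood at 166, 148 and 153 CPM in control rats, at 137, 186 and 192 CPM in model rats and at 208, 159 and 159 CPM in DSS rats, again with overlap. Its log2 fold change against control was 0.14 in the model group (SE 0.158, 95% interval -0.22 to 0.50) and 0.16 in the DSS group (SE 0.134, 95% interval -0.14 to 0.46), and it was 0.04 between the DSS and model groups (SE 0.185, 95% interval -0.39 to 0.46).

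The ratio of Gclc counts to Gclm counts within a library does not depend on the scaling of libraries, and it was computed after both genes had been seen. As the genes differ in length, only its change between rats can be read. It was 1.32, 1.502 and 1.06 in control rats, 1.37, 0.899 and 0.855 in model rats and 0.795, 0.778 and 0.872 in DSS rats. Every DSS rat was below every control rat, and the model rats spanned both ranges, with replicate 1 at the control level and the other two near the DSS level. The mean was 1.29 ± 0.222 in the control group and 0.815 ± 0.0502 in the DSS group (SD, n = 3 each), with p = 0.1 in a two-sided exact permutation test over rats, the smallest p that 3 rats against 3 can give. The model group had a mean of 1.04 ± 0.288, with exact permutation p = 0.3 against control and p = 0.2 for the DSS group against model (n = 3 each).

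**Figure D3:**
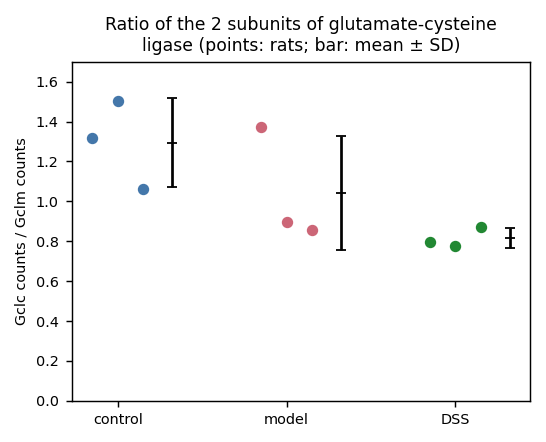
Ratio of Gclc counts to Gclm counts in each rat, on a linear axis from 0, with points for the 3 rats of each group and bars for their mean ± SD. The DSS rats lie between 0.778 and 0.872, under the lowest control rat at 1.06, and the model rats spread from 0.855 to 1.37.

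Slc7a11 (ENSRNOG00000010210) encodes xCT, the light chain of the antiporter that imports cystine in exchange for glutamate and so supplies cysteine for glutathione. Healthy hepatocytes express little of it, and they can also make cysteine from methionine. It had 0, 1 and 0 counts in control rats, 5, 5 and 6 counts in model rats and 2, 6 and 5 counts in DSS rats. The fructose-fed rats all had more counts than any control rat, but the gene was below the filter on low counts and was not tested across genes. From the summed counts, the rate in the model group was 16.5 times that in the control group, with an exact 95% interval of 2.56 to 692 that covers counting error only and rests on 1 count in the control group. For the DSS group against control the ratio was 13.1 (interval 1.97 to 558), and for the DSS group against model it was 0.796 (interval 0.352 to 1.76). An exact permutation test over rats on CPM gave p = 0.1 for either comparison with control (n = 3 each), the smallest p possible.

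Among the enzymes that recycle or use glutathione and thioredoxin, no member was called. Gsr (ENSRNOG00000014915), glutathione reductase, restores reduced glutathione with NADPH. It stood at 92.2, 116 and 116 CPM in control rats, 112, 100 and 107 CPM in model rats and 94.2, 93.0 and 89.7 CPM in DSS rats. The 3 DSS rats lay below the 3 model rats and overlapped the control rats through control replicate 1. The log2 fold change was -0.20 in the DSS group against model (SE 0.12, 95% interval -0.48 to 0.07, FDR 0.775 from edgeR) and -0.02 in the model group against control (SE 0.144, 95% interval -0.35 to 0.31).

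Txnrd1 (ENSRNOG00000009088), the cytosolic thioredoxin reductase and a selenoprotein, stood at 118, 107 and 114 CPM in control rats and at 105, 113 and 113 CPM in model rats. In DSS rats it was at 132, 104 and 85.6 CPM, a range wider than that of the 6 other rats together. For model against control rats the log2 fold change of Txnrd1 was -0.04 (SE 0.119, 95% interval -0.31 to 0.24), with -0.04 in the DSS group against model (SE 0.175, 95% interval -0.44 to 0.36) and -0.08 in the DSS group against control (SE 0.153, 95% interval -0.43 to 0.26). These intervals leave out a change of 0.5 in either direction. Gpx2 (ENSRNOG00000055672), a glutathione peroxidase best known from the epithelium of the gut, had 4, 6 and 1 counts in control rats, 10, 2 and 4 in model rats and 3, 3 and 0 in DSS rats. All groups overlapped, and the rate ratio for the DSS group against model was 0.367, with an exact 95% interval for counting error only of 0.118 to 0.988 and an exact permutation p of 0.3 over rats (n = 3 each). The intestinal markers Vil1 and Cdx2 were under 1 CPM in every library.

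Hmox1 (ENSRNOG00000014117), heme oxygenase 1, opens the heme ring to release iron, carbon monoxide and biliverdin, and in the liver it is also expressed by Kupffer cells. It stood at 27.9, 18.9 and 31.0 CPM in control rats, 25.2, 26.0 and 17.0 CPM in model rats and 33.6, 21.3 and 26.2 CPM in DSS rats. The groups overlapped throughout. The log2 fold change of Hmox1 was -0.19 for model against control rats (SE 0.232, 95% interval -0.72 to 0.34), 0.26 in the DSS group against model (SE 0.225, 95% interval -0.26 to 0.77) and 0.05 in the DSS group against control (SE 0.22, 95% interval -0.45 to 0.56). The rat with the lowest Hmox1 level, model replicate 3, also had the lowest sum of Kupffer cell and leukocyte markers, 228 CPM, and the next lowest rat, control replicate 2, had the next to lowest sum, 295 CPM. The highest sum, 676 CPM, was in control replicate 1, whose Hmox1 level was lower than those of 2 other rats. None of the 9 markers was under 1 CPM in all libraries. The part of these cells in the level of Hmox1 was not tested.

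Within the DSS group the members were highest in the same rat. DSS replicate 1 had the highest level of the 3 rats in 6 of the 7 tested members, and in the remaining one, Nqo1, it was at 6.17 CPM against 6.19 CPM in DSS replicate 3. Among the 12264 genes tested in all 3 comparisons, DSS replicate 1 was the highest rat of its group in 31.5%. In the control and model groups no rat was highest in more than 3 of the 7 members. Without DSS replicate 1 the log2 fold change of Akr7a3 between the DSS and model groups turned from 0.15 to -0.22 and that of Gclm from 0.04 to -0.12, and neither was called with or without that rat. The sign of Akr7a3 in that comparison also turned without model replicate 3, to -0.0067, and that of Gclm without model replicate 1, to -0.10. Over the 9 libraries, the genes most like the mean pattern of the 7 members were Ppip5k2, Zyx, Cnr2, Ankrd26 and Gata4, with root mean square differences between z-scores of log2 CPM from 0.42 to 0.538, among 10095 other genes with a mean of at least 50 counts. That mean pattern reached 1.38 in DSS replicate 1 and -1.76 in DSS replicate 3, so it reflects the spread among DSS rats more than the groups.

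**Figure D4:**
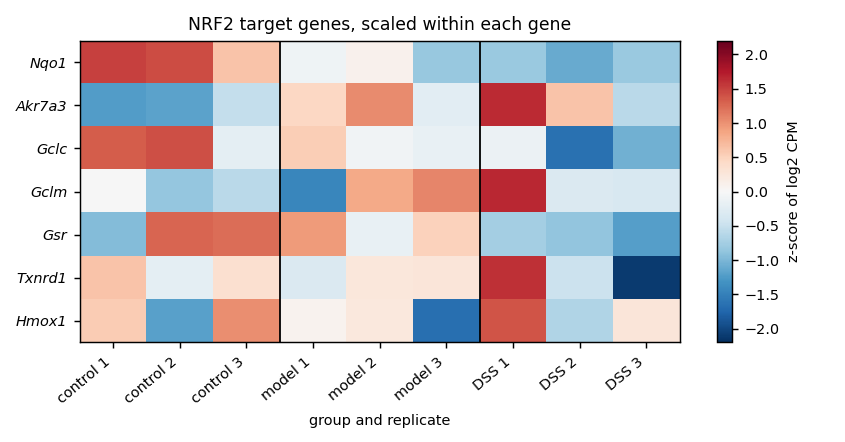
Z-scores of log2 CPM of the 7 tested members (rows) in the 9 libraries (columns), scaled within each gene, with black lines between groups, red for high and blue for low. DSS replicate 1 is the highest DSS rat for all members but Nqo1, and Nqo1 is the member that separates the control rats from the rest.

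Transcripts of the NRF2 control system showed no call with edgeR. All 10 genes of that list were tested, and none passed an FDR of 0.05 with edgeR in any comparison. DESeq2 called 0, 0 and 1 (Mafg, FDR 0.0489) at that FDR and the minimum fold change. In the DSS group against control, Sqstm1 (DESeq2 FDR 0.00658) and Nfe2l1 (DESeq2 FDR 0.0456) also passed that FDR. Their DESeq2 log2 fold changes, -0.36 and 0.38, were under the minimum in size. At an unadjusted p under 0.05 there were 0 in the model group against control, 1 in the DSS group against model and 4 in the DSS group against control. Of all genes, 13.2%, 8.02% and 24.3% reached that level in the same order. Nfe2l2, which encodes NRF2 itself, was at 118 ± 6.79 CPM in control rats, 118 ± 22.1 CPM in model rats and 123 ± 30.9 CPM in DSS rats (SD, n = 3 each), with log2 fold changes of 0.00, 0.07 and 0.06 in the 3 comparisons. Keap1 stood at 46.8 ± 3.54, 53.5 ± 4.06 and 47.6 ± 1.42 CPM in the same order. Since NRF2 is controlled mainly through the stability of the protein, these transcript levels do not give its activity.

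Sqstm1 encodes p62, which binds KEAP1 and is itself an NRF2 target. It stood at 666, 658 and 680 CPM in control rats, 879, 573 and 748 CPM in model rats and 505, 536 and 513 CPM in DSS rats, which were lower than all other rats. Its log2 fold change was -0.50 in the DSS group against model (SE 0.179, FDR 0.525 from edgeR) and -0.37 in the DSS group against control (SE 0.108, FDR 0.0717). Nfe2l1, a relative of NRF2 that controls proteasome genes, was at 68.9 ± 4.02 CPM in DSS rats and 52.9 ± 4.17 CPM in control rats (SD, n = 3 each), a log2 fold change of 0.37 (SE 0.103, FDR 0.0608). Mafg, a small MAF partner, was at 16.4 ± 4.41 and 10.5 ± 0.906 CPM, a log2 fold change of 0.63 (SE 0.195, FDR 0.0837). Bach1 was at 18.3 ± 3.49 and 14.0 ± 1.19 CPM, a log2 fold change of 0.38 (SE 0.158, FDR 0.176). The remaining control genes, Cul3, Rbx1, Mafk and Maff, had log2 fold changes between -0.12 and 0.52 in the 3 comparisons.

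Other genes described as NRF2 targets, among them transporters, glutathione S-transferases and reductases, were taken as a list of 27, of which 25 were matched and 22 to 24 tested in a comparison. None was called at an FDR of 0.05 by edgeR in the model group against control or in the DSS group against model. In the model group against control, 3 were higher and 1 lower at an unadjusted p under 0.05, against 13.2% of all genes. DESeq2 called 2 there, Nmrk1 (lower) and Osgin1 (higher). In the DSS group against model, 6 of 24 tested genes were higher and 1 lower at that p, against 8.02% of all genes. DESeq2 called 1 there, Abcc2 (higher). In the DSS group against control, edgeR called 2 higher and 1 lower of 23 tested at an FDR of 0.05, against 6.36% of all genes. At an unadjusted p under 0.05 there were 9 higher and 2 lower, against 24.3% of all genes. DESeq2 called 5 in that comparison, namely Gstm1, Aox1, Nmrk1, Abcc2 and Ephx1. Gstm1, a glutathione S-transferase whose reads may be shared with near copies, stood at 827 ± 20.7 CPM in control rats, 917 ± 201 CPM in model rats and 1438 ± 168 CPM in DSS rats (SD, n = 3 each), and rose against control by 0.79 on the log2 scale (SE 0.127, FDR 0.00943 from edgeR). Aox1, aldehyde oxidase, rose by 0.56 on the log2 scale (SE 0.144, FDR 0.0474), and Nmrk1, nicotinamide riboside kinase, had a log2 fold change of -1.16 (SE 0.208, FDR 0.014). Abcc2 stood at 455 ± 144 CPM in control rats and 288 ± 110 CPM in model rats. In DSS rats Abcc2 was at 851 ± 218 CPM (SD, n = 3 each). Its log2 fold change was 1.57 in the DSS group against model (SE 0.332, FDR 0.141 from edgeR). Against control it was 0.90 (SE 0.264, FDR 0.0843), and that of Ephx1 was 0.72 (SE 0.227, FDR 0.0953). Osgin1 stood at 161 ± 11.7 CPM in control rats, 275 ± 41.8 CPM in model rats and 393 ± 232 CPM in DSS rats (SD, n = 3 each). For model against control rats its log2 fold change was 0.77 (SE 0.154, FDR 0.0844 from edgeR and 0.00107 from DESeq2). Groups did not overlap for 3, 5 and 7 higher and 2, 3 and 4 lower genes of the list in the 3 comparisons. Of all genes, 21.1%, 13.9% and 30% did not overlap. The list's median log2 fold change was 0.12, 0.31 and 0.13 in the 3 comparisons.

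NADPH is the electron donor of Gsr, Txnrd1 and Nqo1. Of 5 listed symbols of genes that supply it or work in the pentose phosphate pathway, 4 were matched and tested. None was called by edgeR at an FDR of 0.05 in the model group against control (0 at an unadjusted p under 0.05, and 0 called by DESeq2). Me1, the cytosolic malic enzyme, stood at 125, 188 and 62.7 CPM in control rats, 132, 97.5 and 110 CPM in model rats and 26.2, 28.6 and 24.9 CPM in DSS rats. Every DSS rat was lower than all other rats. Me1 fell by 2.08 on the log2 scale in the DSS group against model (SE 0.156, FDR 0.0019 from edgeR) and by 2.24 in the DSS group against control (SE 0.4, FDR 0.0323). Tkt, transketolase, stood at 417 ± 69.1 CPM in control rats, 354 ± 93.6 CPM in model rats and 153 ± 22.2 CPM in DSS rats (SD, n = 3 each), and fell against control by 1.46 on the log2 scale (SE 0.163, FDR 0.00183). Tkt in DSS against model rats had a log2 fold change of -1.21 (SE 0.213, FDR 0.0738), which edgeR did not call and DESeq2 called (FDR 3.04e-05). In that comparison DESeq2 called 3 of the 4 genes at an FDR of 0.05. Taldo1, transaldolase, had log2 fold changes of -0.57 (SE 0.144, FDR 0.256) in the DSS group against model and -0.30 (SE 0.128, FDR 0.188) in the DSS group against control. Idh1, the remaining gene, went the other way and was not called. Its log2 fold change was 0.27 against model (SE 0.163, FDR 0.777) and 0.33 against control (SE 0.157, FDR 0.235).

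Of 23 further antioxidant and glutathione enzymes, edgeR called 0 at an FDR of 0.05 in the model group against control and 0 in the DSS group against model. In the model group 4 were higher and 0 lower at an unadjusted p under 0.05, against 13.2% of all genes. DESeq2 called 1, Oplah. Of the 22 tested there, 18 had a log2 fold change above 0 and 4 below, with a median of 0.16. In the DSS group against model 0 were higher and 4 lower at that p, against 8.02% of all genes. DESeq2 called 1. Of the 23 tested there, 2 had a log2 fold change above 0 and 21 below, with a median of -0.14. In the DSS group against control, 3 fell and 1 rose at an FDR of 0.05, against 6.36% of all genes. DESeq2 called 4 there. At an unadjusted p under 0.05, 5 were higher and 5 lower, against 24.3% of all genes. The log2 fold change was above 0 for 13 and below 0 for 10, with a median of 0.08. Groups did not overlap for 5, 1 and 4 higher and 0, 8 and 4 lower genes of this list in the 3 comparisons. Of all genes, 21.1%, 13.9% and 30% did not overlap. Gss, which carries out the second step of glutathione synthesis after Gclc and Gclm, was at 64.3, 95.7 and 55.3 CPM in control rats, 68.1, 75.6 and 56.5 CPM in model rats and 37.6, 37.7 and 40.2 CPM in DSS rats. All DSS rats were lower than every other rat, and the log2 fold change against control was -0.91 (SE 0.189, FDR 0.0284 from edgeR). Against the model group it was -0.79 (SE 0.139, FDR 0.0738), which edgeR did not call, and Gss was the 1 gene of the list that DESeq2 called there (FDR 0.00107). Gpx1, the main cytosolic glutathione peroxidase and a selenoprotein, stood at 775 ± 71.9 CPM in control rats, 640 ± 199 CPM in model rats and 393 ± 51.4 CPM in DSS rats (SD, n = 3 each), and fell against control by 0.99 on the log2 scale (SE 0.139, FDR 0.00513). Ggct, which releases 5-oxoproline from gamma-glutamyl peptides, had a log2 fold change of -0.64 (SE 0.138, FDR 0.0273), and Txnrd3, a relative of Txnrd1, rose by 0.88 on the log2 scale (SE 0.187, FDR 0.0263).

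Genes near Slc7a11 and Hmox1 in function included a few larger values. With edgeR at an FDR of 0.05, 0.601%, 0.456% and 6.36% of all genes were called in the 3 comparisons. Of 10 tested genes of cystine and methionine supply or of the ATF4 response, which also controls Slc7a11, 1 rose in the model group against control and 2 in the DSS group against control at an FDR of 0.05, and 0 were called in the DSS group against model by edgeR (1 lower at an unadjusted p under 0.05, 0 called by DESeq2). Asns, asparagine synthetase and an ATF4 target, was at 3.85, 2.74 and 1.46 CPM in control rats, at 18.1, 22.7 and 31.7 CPM in model rats and at 4.12, 17.9 and 6.29 CPM in DSS rats. It rose by 3.13 on the log2 scale in the model group against control (SE 0.352, FDR 0.0151). The 3 DSS rats lay below the 3 model rats, DSS replicate 2 only narrowly. The log2 fold change was -1.35 (SE 0.501, FDR 0.549), not called by edgeR or DESeq2. Each DSS rat was above every control rat, with a log2 fold change of 1.77 (SE 0.648). EdgeR did not call it (FDR 0.168) and DESeq2 did (FDR 0.00419). At an FDR of 0.05, DESeq2 called 3 genes of this list in the model group against control, Asns, Trib3 and Sesn2. In the DSS group against control it called 5, the same genes with Cth and Chac1. In the DSS group against control, Trib3 rose by 2.64 on the log2 scale (SE 0.528, FDR 0.0342) and Cth, which makes cysteine from cystathionine, by 1.02 (SE 0.242, FDR 0.0439). Trib3 differed by 1.805 on the log2 scale between the model and control groups (SE 0.358), which edgeR did not call (FDR 0.0836) and DESeq2 did (FDR 0.000533). Of 7 genes of heme handling, 1 rose and 1 fell in the DSS group against control, and 0 were called in the others by edgeR (3 and 2 at an unadjusted p under 0.05, and 1 and 0 called by DESeq2). Alas1, the rate-limiting enzyme of heme synthesis, was at 276 ± 105 CPM in control rats, 109 ± 7.31 CPM in model rats and 74.4 ± 7.76 CPM in DSS rats (SD, n = 3 each). Its log2 fold change was -1.90 in the DSS group against control (SE 0.256, FDR 0.00783). For model against control rats it was -1.35 (SE 0.248), without overlap, which edgeR did not call (FDR 0.0644) and DESeq2 did (FDR 3.24e-05). Hpx, which carries free heme in plasma, was at 4682 ± 138 CPM in control rats, 7530 ± 2574 CPM in model rats and 7047 ± 868 CPM in DSS rats (SD, n = 3 each). It rose in the DSS group against control by 0.58 on the log2 scale (SE 0.134, FDR 0.0333). For model against control rats the log2 fold change of Hpx was 0.68 (SE 0.243, FDR 0.283), without overlap and not called. Between the DSS and model groups it was -0.09 (SE 0.247). Hp, which binds free haemoglobin, differed by 0.59 on the log2 scale between the model and control groups, higher in model rats (SE 0.218, FDR 0.298).

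The aryl hydrocarbon receptor shares Nqo1 as a target with NRF2. The 5 genes tested here were the receptor Ahr, its partner Arnt and the targets Cyp1a1, Cyp1a2 and Tiparp. None was called in any comparison by edgeR at both an FDR of 0.05 and the fold change threshold (2, 1 and 2 genes at an unadjusted p under 0.05, and 0 called by DESeq2). Arnt, the partner of the receptor, had a log2 fold change of -0.46 in the DSS group against control (SE 0.116, FDR 0.0451), under the minimum fold change. Cyp1a1, the receptor's most inducible target, was at 1.15 ± 0.87 CPM in control rats (SD, n = 3). In DSS rats it was at 0.286 ± 0.0671 CPM (SD, n = 3), a log2 fold change of -1.98 against control (SE 0.61, FDR 0.0836). Model rats had 11.4, 0.706 and 0.616 CPM of Cyp1a1. Apart from model replicate 1, every library was at 2.14 CPM or less, a low level. EdgeR gave Cyp1a1 1.93 for model against control rats (SE 1.12, FDR 0.512) and -3.89 for DSS against model rats (SE 1.21, FDR 0.422). DESeq2 gave Cyp1a1 no FDR in either. Ahr itself differed by 0.54 on the log2 scale between the model and control groups (SE 0.196, FDR 0.297). In the DSS group against control, the lists beside the members had 10, 23, 4, 23, 10, 7 and 5 tested genes, in the order described above. Of these, 13 genes were called at an FDR of 0.05, against 6.36% of all genes. Only Tkt, Gstm1, Gpx1 and Alas1 among them stayed called with any 1 rat left out, as did Me1, the 1 gene called in the DSS group against model, and the others lost the call at least once. Without control replicate 2 the FDR of Asns in the model group rose to 0.086, and without control replicate 3 that of Nmrk1 in the DSS group rose to 0.0522. The remaining genes called in the DSS group against control (Aox1, Me1, Gss, Ggct, Txnrd3, Trib3, Cth and Hpx) lost the call in 4 to 6 of the 6 fits with 1 rat left out, with an FDR of up to 0.136.

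**Figure D5:**
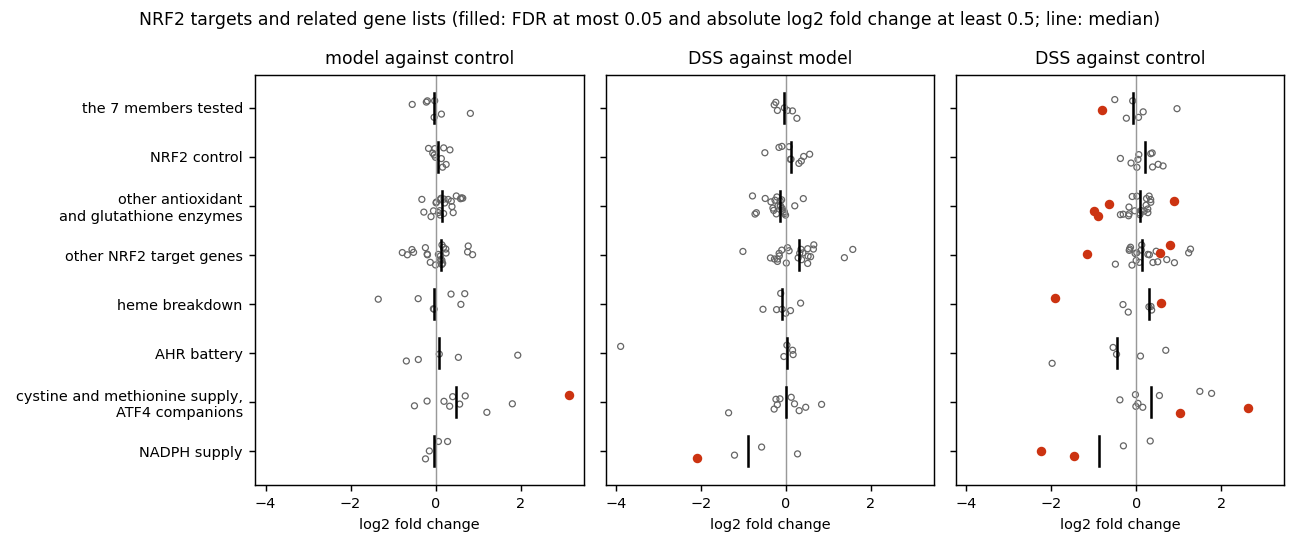
Log2 fold changes of the 7 tested members and of the genes of the other lists in the 3 comparisons, from edgeR. Filled points passed an FDR of 0.05 and an absolute log2 fold change of 0.5, open points did not, and lines mark the median of each list. The medians of the members lie between -0.08 and -0.04. That of the 4 NADPH supply genes lies at -0.89 and -0.88 in the comparisons of the DSS group with the model and control groups. Idh1 of that list was higher in the DSS group in both.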

How the data were processed

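Liver RNA of 9 rats was sequenced after oligo(dT) enrichment. Per the methods and processing notes, HISAT2 2.0.5 did the alignment and HTSeq 0.6.1 the unstranded exon counting, and the authors deposited raw counts per gene as whole numbers, with Rnor_6.0 named in the submitters' processing notes. Without strand, overlapping genes can share reads. A deposited table of assembled transcripts was not used, since its unit is not stated. Each comparison was fitted on the 6 libraries of its groups with edgeR 4.0.16 in R 4.3.3 (filterByExpr, TMM, glmQLFit with robust estimation, two-sided glmQLFTest), after a trial on simulated data. SE are the fold change divided by the root of F. The samples come from separate rats as far as the labels tell. Within-group pairs differed by a chi-square per gene of 18.2 to 65.9, where counting error alone gives about 1. Alternatives were DESeq2 1.42.0, other scalings and filters, a joint fit of all 9 libraries, a block for the replicate number, and fits without each rat. The members and lists were chosen with earlier results of these data known. Named genes are the members, the NRF2 control genes and the 5 genes most like the members' mean pattern. List genes called at an FDR of 0.05 by edgeR or DESeq2 (filled up to 3 a list by p) and Idh1 are also named. Cbr1, Fth1, Pgd, Ugt1a6, Aldh3a1, Pecam1, Hba1 and Hba2 were not matched by symbol. Promoter and protein sequences of the rat were not used here. The markers of endothelial, stellate, bile duct and red blood cells summed to 80.6 to 240 CPM, 60.0 to 76.6 CPM, 15.1 to 33.3 CPM and 116 to 539 CPM over the libraries, and overlapped between groups. A listed gene that is not reported here was left out of the counts.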

Additional observations from a re-analysis of the deposited data

How the results depend on the processing

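In the model group against control and in the DSS group against model, 0 members were called under each of the alternatives run. In the DSS group against control, 1 member (Nqo1) was called with no filter on low counts (FDR 0.00783), 1 at an FDR of 0.05 and 2 with DESeq2, against 0 in the main fit. Over all genes, edgeR called 10, 17 and 187 genes and DESeq2 256, 147 and 769, and no filter on low counts gave 71, 38 and 489. With the replicate number as a block, 0 members were called in each comparison, and over all genes 0, 7 and 104 were. The replicate numbers showed no sign of pairing the rats, since the deviations of equally numbered rats correlated between -0.23 and -0.02. Unequally numbered rats were not compared, so a batch shared across groups was not tested. Library size alone moved the median log2 fold change of all genes to -0.14 in both comparisons with control, and that of Hmox1 in the DSS group against control to -0.088. With 1 rat left out, the sign of a log2 fold change was not stable for Gsr in the model group against control (-0.13 to 0.037), for Akr7a3 (-0.22 to 0.43), Gclm (-0.12 to 0.13) and Txnrd1 (-0.23 to 0.11) in the DSS group against model, or for Txnrd1 (-0.26 to 0.072) and Hmox1 (-0.13 to 0.21) in the DSS group against control, all uncalled. The cause of these differences was not tested. With 3 rats a group, the spread between rats limits the members with more than a few counts, and depth limits Slc7a11 and Gpx2.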
